A study of Homo sapiens with 12 samples.

Results

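Human iPSCs that had been suspended by 20 rounds of pipetting when they were passaged (Cond 4, labelled Physical stimulas) were set against iPSCs passaged in the general way (Cond 1, control), across all genes. Each condition had 3 RNA-Seq libraries, so 6 of the 12 libraries in the series entered this comparison, taken by their labels, and the others were Cond 2 (labelled Low nutrient, in heat-treated StemFit medium) and Cond 3 (labelled Differentiation, in a DMEM medium with FBS). All cells were of the established line 201B7, a single iPSC clone whose tissue of origin is labelled as skin, and were harvested on Day 5. Per the methods, iPSCs were treated with Accutase at passage and detached by pipetting, so Cond 1 cells were dissociated and pipetted as well. After the passage, Cond 4 cells were cultured like Cond 1 cells in the pluripotency medium. The 2 groups thus differ in the suspension by 20 pipettings alone, as far as the labels state. Each plate held the conditions in 1 well each, and the whole arrangement was run 3 times. The study calls its replicates technical in the results, and the p-values below measure the spread between these wells of a single clone.

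Suspending pluripotent cells exposes them to shear and breaks cell-cell contacts. Dissociated human pluripotent cells are known to survive poorly as single cells. Mechanical load is known to reach transcription through the YAP/TEAD and SRF/MRTF factors, through immediate early genes such as FOS and EGR1, and through stretch-gated channels such as PIEZO1. Most of these responses are known to run within minutes to hours, whereas the RNA here was taken days after the pipetting.

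Cond 1 libraries held 16690487 to 19935360 counts and Cond 4 libraries 16441148 to 18927670. No pair of replicates was alike within sampling noise, at a chi-square per gene of 3.99 to 6.31 in Cond 1 and of 4.13 to 4.86 in Cond 4, and each library counts as 1 replicate. Replicate 2 of Cond 1 had the lowest share of TPM (counts scaled for gene length and for the total of the library) on mitochondrial genes, 9.87%, against 12.9% and 14.5% in the other libraries of Cond 1 and 12.7% to 14.1% in Cond 4.

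The cells of both groups carried the markers of primed pluripotent cells. SOX2, a core pluripotency factor, was at 909, 938 and 878 TPM in Cond 1 and at 949, 972 and 960 TPM in Cond 4. LIN28A, an RNA-binding protein of pluripotent cells, was at 1613, 1804 and 1651 TPM in Cond 1 and at 1682, 1785 and 1821 TPM in Cond 4. NANOG, the homeobox factor, was at 46.7, 47.2 and 43.6 TPM in Cond 1 and at 44.6, 47.1 and 48.1 TPM in Cond 4. The 3 log2 fold changes, at 0.067 for SOX2, 0.048 for LIN28A and 0.012 for NANOG, had narrow 95% intervals, the widest being -0.15 to 0.17 for NANOG. POU5F1, which encodes OCT4, was counted with only 14 to 25 reads per library in these groups, and its 95% interval of -1.06 to 0.71 was too wide to bound its change. By immunostaining, the study found the protein of this gene in most cells of both groups. How reads that match several places were counted is not given, so the few reads do not show that POU5F1 was barely expressed. The cause of its low count was not tested. Markers of other cells were mixed in level. Below 1 TPM in all 6 libraries were 2 of 13 neuroectoderm, 8 of 13 mesendoderm and 10 of 12 surface ectoderm and amnion markers. PAX6 of neuroectoderm was at 0 to 0.116 TPM, TBXT of mesendoderm at 0 to 0.723 TPM and GATA3 of surface ectoderm at 0 to 0.544 TPM over the 6 libraries. Other members of these lists were detected, with HESX1 of neuroectoderm at 15.8 to 28.1 TPM, TBX6 of mesendoderm at 6.74 to 10.4 TPM and KRT7 of surface ectoderm at 19.5 to 23.9 TPM. COL1A1, a fibroblast collagen, was at 191 to 259 TPM. In bulk RNA, fewer cells of a type and less RNA per cell cannot be told apart.

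Few genes differed between Cond 4 and Cond 1. The quasi-likelihood test of edgeR was applied to the counts in a single fit over the 12 libraries, for 17747 genes that passed its filter on low counts, with Benjamini-Hochberg adjustment over these genes. With an adjusted p under 0.05, 5 genes differed (0.0282% of the genes tested), of which 4 were higher (0.0225%) and 1 was lower (0.00563%) in Cond 4. With a fold change above 2 as well, which defines a DEG here, 3 genes remained (0.0169%). The same definition gave 770 DEGs (4.34%) for Cond 2 against Cond 1 and 1449 DEGs (8.16%) for Cond 3 against Cond 1, contrasts which share the Cond 1 libraries. At an unadjusted p under 0.05, 1102 genes differed in Cond 4 (6.21%), 514 higher (2.9%) and 588 lower (3.31%). The TPM of the groups did not overlap in 2106 genes (11.9%), 1198 of them higher (6.75%) and 908 lower (5.12%) in Cond 4, and the exact two-sided permutation test of 3 libraries against 3 cannot give a p below 0.1 for any of them.

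**Figure D1:**
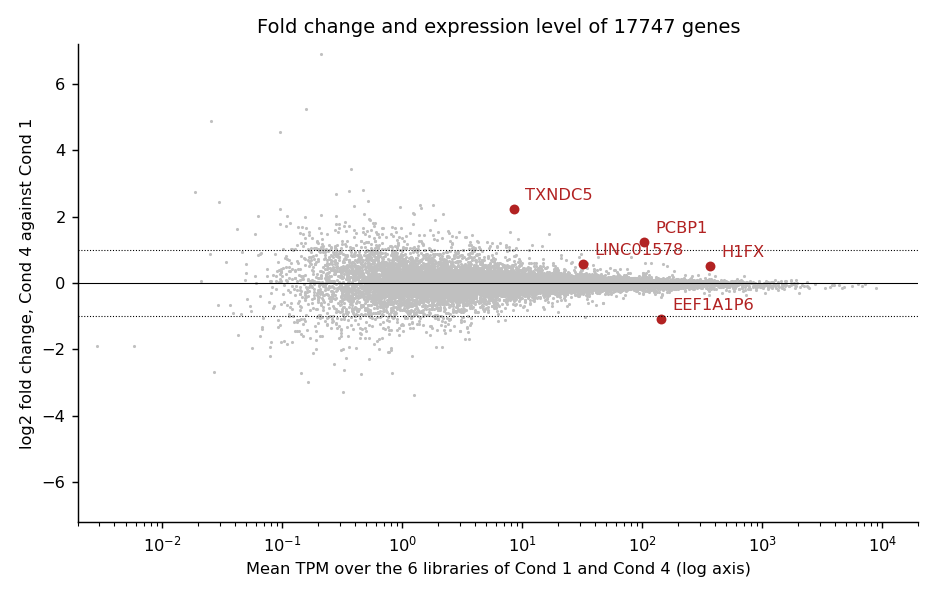
Log2 fold change of Cond 4 against Cond 1 (vertical axis) against the mean TPM over the 6 libraries (horizontal log axis) for the 17747 genes tested. Each grey point is a gene, the red points are the 5 genes with an adjusted p under 0.05, and the dotted lines mark a fold change of 2; the cloud narrows from left to right, and all 5 red points have a mean TPM above 1.

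A p-value that misses its threshold does not show equal expression, so the 95% interval of each log2 fold change was used to bound it. The interval lay within a 2-fold change in either direction for 13359 genes (75.3%) and within a 1.5-fold change for 10847 genes (61.1%). The bound depended on the expression level. Of 1657 genes with a mean of 100 TPM or more, 1652 were bounded within 2-fold (99.7%), and of 7665 genes at 10 to 100 TPM, 7514 were (98.0%). Of 6249 genes at 1 to 10 TPM, 3956 were (63.3%), and below 1 TPM only 237 of 2176 genes were (10.9%). For genes at low level, a change of 2-fold was therefore often not detectable with these libraries. For Cond 2 the bound held for 12215 genes (68.8%) and for Cond 3 for 11507 genes (64.8%).

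The spread of the fold changes was narrow. The middle 90% of the log2 fold changes in Cond 4 lay between -0.47 and 0.52, and their standard deviation over genes was 0.35, beside 0.62 in Cond 2 and 0.72 in Cond 3. Of the 450 genes whose log2 fold change was beyond 1 in either direction, 298 had a mean below 1 TPM. Over the 14253 genes with at least 1 TPM in all 12 libraries, the mean log2(TPM + 1) of Cond 4 correlated with that of Cond 1 across genes with a Pearson r of 0.9960, against 0.9812 for Cond 2 and 0.9719 for Cond 3. Genes are not independent replicates, so these values describe the libraries only.

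The distance between 2 libraries was taken as the root mean square difference of log2(TPM + 1) over the same genes. Within Cond 1 the 3 distances were 0.261 to 0.292 with a mean of 0.281, and within Cond 4 they were 0.268 to 0.283 with a mean of 0.278. Between Cond 1 and Cond 4 the 9 distances were 0.269 to 0.301 with a mean of 0.283, which is close to the means within each condition. The distances of Cond 1 replicate 2 from the Cond 4 libraries, at 0.3010, 0.3002 and 0.2922, lay above the largest distance within Cond 1, 0.2921. This is the library with the lowest mitochondrial share. The mean distance from Cond 1 was 0.440 to Cond 2 and 0.494 to Cond 3, and from Cond 4 it was 0.433 to Cond 2 and 0.504 to Cond 3.

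**Figure D2:**
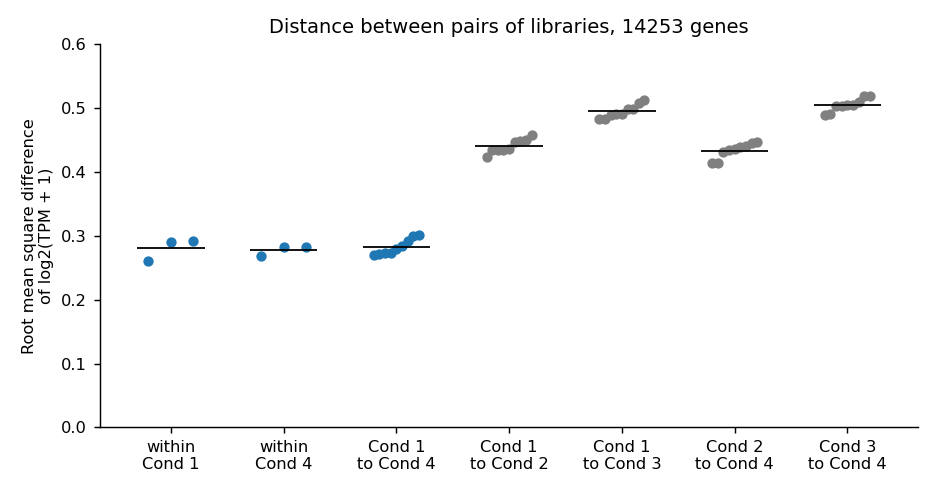
Root mean square difference of log2(TPM + 1) over 14253 genes (vertical axis) for pairs of libraries, grouped by the conditions of the pair. Each point is a pair, the bar is the mean of the group, and blue points are pairs within or between Cond 1 and Cond 4; the Cond 1 to Cond 4 pairs, at 0.269 to 0.301, overlap the pairs within Cond 1 and within Cond 4, and the pairs of Cond 1 or Cond 4 with Cond 2 or Cond 3, at 0.414 or more, lie above them.

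PCBP1 had the smallest p-value of all genes. It encodes poly(C)-binding protein 1, which binds C-rich stretches of RNA, acts on mRNA stability, splicing and translation, and delivers iron to ferritin. PCBP1 (ENSG00000169564) is a gene of 1 exon on chr2:70087477-70089203 of GRCh38, on the forward strand. It was at 65.3, 56.4 and 62.9 TPM in Cond 1 and at 141, 158 and 141 TPM in Cond 4, from 466 to 645 and 1165 to 1419 reads per library. Every Cond 4 library lay above every library of the other conditions. PCBP1 rose by 1.24 on the log2 scale (edgeR adjusted p = 2.51e-07, standard error 0.0987), a 2.36-fold difference with a 95% interval of 1.03 to 1.44 on the log2 scale. Cond 2 libraries held 57.9 to 82.9 TPM and Cond 3 libraries 80.9 to 90.4 TPM.

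The other poly(C)-binding proteins were not called, and their values lay close to control. PCBP2, from whose mRNA the PCBP1 gene is thought to have arisen by retrotransposition, was at 109, 118 and 114 TPM in Cond 1 and at 115, 108 and 115 TPM in Cond 4, with a log2 fold change of -0.027 (95% interval -0.14 to 0.085). PCBP4 had a log2 fold change of -0.028, and HNRNPK, the related KH-domain protein, had 0.039. PCBP3, which had no count row, was at 4.52 to 5.15 TPM in Cond 1 and 3.90 to 4.90 TPM in Cond 4. Sharing of reads between the copies is limited, since 2.12% of the 31-base words of PCBP1 also occur in another gene and 0.177% in PCBP2. On the opposite strand, exons of the lncRNA PCBP1-AS1 cover 73.2% of the PCBP1 exon. The study does not state whether counting used the strand, and without strand the reads of the 2 genes could not be told apart there. PCBP1-AS1 was at 1.59 to 2.16 TPM in Cond 1 and at 1.91 to 2.13 TPM in Cond 4, with a log2 fold change of 0.090 (95% interval -0.21 to 0.39). Over the 4 of 5 family members tested, the median log2 fold change was 0.0057.

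H1FX rose in Cond 4 as well, though Cond 2 and Cond 3 were also higher than Cond 1. Its product, now named H1-10, is a linker histone that binds nucleosomes and whose mRNA, unlike that of replication-dependent histones, carries a poly(A) tail. H1FX (ENSG00000184897) has 1 exon on chr3:129314771-129316286, on the reverse strand. TPM was 298, 317 and 297 in Cond 1 and 446, 437 and 418 in Cond 4. The groups did not overlap, and the log2 fold change was 0.50 (edgeR adjusted p = 2.72e-05, standard error 0.0531), a 1.41-fold difference. Cond 2 was at 451 to 472 TPM and Cond 3 at 509 to 544 TPM, with log2 fold changes of 0.53 (adjusted p = 1.00e-07 from edgeR) and 0.77 (adjusted p = 1.17e-10 from edgeR). No 31-base word of H1FX occurs in another gene. The lncRNA H1FX-AS1, which shares 22.8% of the H1FX exon on the other strand, had a log2 fold change of -0.24 (95% interval -0.59 to 0.10).

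TXNDC5 had the largest fold change of the 5 genes. It encodes a thioredoxin-domain protein of the endoplasmic reticulum that belongs to the protein disulfide isomerases, the enzymes that form and rearrange disulfide bonds in secreted proteins. TXNDC5 (ENSG00000239264) lies on chr6:7881517-7910788, on the reverse strand. It was at 3.60, 2.03 and 3.31 TPM in Cond 1, from 42 to 87 reads, and at 14.8, 17.1 and 10.8 TPM in Cond 4, from 256 to 386 reads. The lowest Cond 4 library was above the highest library of each other condition, the closest being Cond 2 replicate 3 at 7.24 TPM. TXNDC5 rose by 2.23 on the log2 scale (edgeR adjusted p = 0.00214, standard error 0.316), a 4.69-fold difference with a 95% interval of 1.58 to 2.89 on the log2 scale. On log2(TPM + 1) with limma, over 14253 genes, its log2 fold change was 1.94 and did not pass (adjusted p = 0.125 from limma). The read-through gene BLOC1S5-TXNDC5 shares 60.9% of the exonic bases of TXNDC5 on the same strand and was counted with 0 reads in all 12 libraries. All exonic bases of the read-through gene (100%) lie in other genes on that strand. How reads in shared exons were counted is not given, so the 0 reads do not show that the read-through gene is silent. For the same reason the count of TXNDC5 may lack reads from the shared part. BLOC1S5, the upstream gene in that read-through, had a log2 fold change of 0.11 (95% interval -0.13 to 0.35).

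Among the protein disulfide isomerases as a group, 17 of 20 members were tested, and TXNDC5 was the only one called after adjustment with edgeR. Their median log2 fold change was -0.0049, against a median of 0.00033 over all genes tested. At an unadjusted p under 0.05, PDIA5, PDIA4 and TXNDC16 were lower in Cond 4, with log2 fold changes of -0.26, -0.16 and -0.21. These were 3 of the 17 tested, with 1 higher, beside 3.31% lower and 2.9% higher of all genes tested. PDIA3, the member with the highest level, was at 390 to 447 TPM in Cond 1 and 416 to 423 TPM in Cond 4, with a log2 fold change of -0.031.

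LINC01578 was the lncRNA among the called genes. It is now named CHASERR, lies upstream of CHD2, the gene of a chromatin remodeller, overlaps its start and is known to repress it in cis. LINC01578 (ENSG00000272888) was annotated on chr15:92819540-92899701, on the forward strand. TPM was 27.2, 24.0 and 26.7 in Cond 1 and 39.1, 41.8 and 35.2 in Cond 4. All Cond 4 libraries were above the 9 others, which held 23.6 to 28.8 TPM, and the gene rose by 0.56 on the log2 scale (edgeR adjusted p = 0.00214, standard error 0.0806), a 1.48-fold difference. CHD2 was at 26.5, 29.4 and 26.8 TPM in Cond 1 and at 27.3, 31.3 and 32.1 TPM in Cond 4, with a log2 fold change of 0.12 (95% interval -0.018 to 0.26, adjusted p = 0.819 from edgeR). Exons of the 2 genes overlap little, with 1.40% of the 31-base words of LINC01578 found in CHD2.

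EEF1A1P6 was the single gene called as lower. It is a processed pseudogene of EEF1A1, the abundant elongation factor that brings aminoacyl-tRNA to the ribosome, and lies on chr7:22510616-22511999, on the reverse strand. TPM was 184, 221 and 181 in Cond 1 and 75.9, 118 and 83.4 in Cond 4. The gene fell by 1.09 on the log2 scale (standard error 0.191, adjusted p = 0.0332 from edgeR), but passed in only 1 of the 6 fits that left out 1 library of Cond 1 or Cond 4, where its adjusted p lay between 0.0218 and 0.359 with edgeR. It passed when Cond 4 replicate 2 was left out and not when any of the other 5 libraries was. Cond 2, at 57.8 to 135 TPM, and Cond 3, at 118 to 157 TPM, were lower than Cond 1 as well, with log2 fold changes of -1.20 and -0.48 (edgeR adjusted p = 5.61e-05 and 0.0447). EEF1A1 itself was at 6877, 7688 and 6846 TPM in Cond 1 and at 6858, 7367 and 7052 TPM in Cond 4, with a log2 fold change of -0.022 (95% interval -0.12 to 0.072), and the copies EEF1A1P5 and EEF1A1P13 had log2 fold changes of -0.074 and -0.26, neither of which passed.

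EEF1A1P6 shares most of its sequence with EEF1A1. The 1384 bases of the pseudogene aligned with the coding sequence of EEF1A1 at an identity of 99.49%, with 7 substitutions and 1 gap, and 87.3% of its 31-base words occur in other genes, 83.6% in EEF1A1. The 90-base window with the most differences inside 1 coding exon is shown, from exon 3 of EEF1A1 (GRCh38 chr6:73519367-73519456, reverse strand) and from EEF1A1P6 (GRCh38 chr7:22511706-22511795, reverse strand). Capitals mark the 2 bases that differ, and a read that covers neither fits both genes.
EEF1A1: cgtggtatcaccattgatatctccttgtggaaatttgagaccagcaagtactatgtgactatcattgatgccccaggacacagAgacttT
EEF1A1P6: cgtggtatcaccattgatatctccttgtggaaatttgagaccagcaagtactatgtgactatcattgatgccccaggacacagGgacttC
The treatment of reads that match several places is not given in the methods, so the value of EEF1A1P6 is uncertain.

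**Figure D3:**
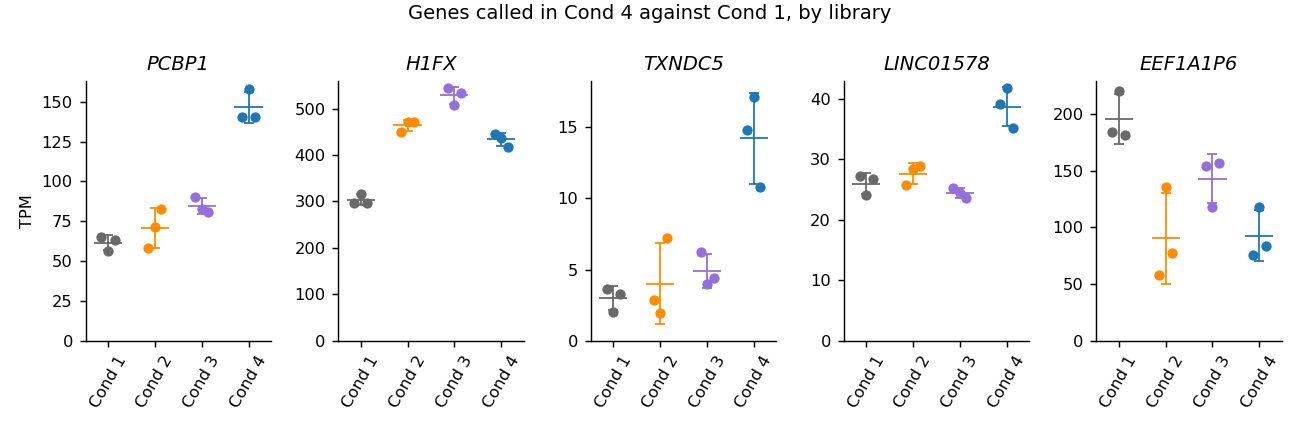
TPM (vertical axis, from 0) in the 12 libraries for the 5 genes with an adjusted p under 0.05 in Cond 4 against Cond 1, by condition (horizontal axis). Points are libraries, bars are the mean and error bars the SD of 3 libraries; Cond 4 stands above the 3 other conditions for PCBP1, TXNDC5 and LINC01578, while H1FX and EEF1A1P6 in Cond 4 are close to Cond 2.

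Set against the conditions with altered medium, 3 of the 5 genes separated Cond 4 from each of them. These contrasts share the Cond 4 libraries with the one that named the genes and are given as descriptions. In the same fit, 19.2% of all genes differed between Cond 4 and Cond 2 and 38.9% between Cond 4 and Cond 3 at an adjusted p under 0.05. PCBP1 was higher in Cond 4 than in Cond 2 by 1.13 and than in Cond 3 by 0.81 on the log2 scale. For TXNDC5 the differences were 1.92 and 1.55, and for LINC01578 they were 0.56 and 0.68, with adjusted p-values of at most 2.40e-04 from edgeR. H1FX differed from Cond 2 by -0.026 (adjusted p = 0.801 from edgeR) and was lower than in Cond 3 by a log2 difference of -0.27 (edgeR adjusted p = 2.43e-04). EEF1A1P6 differed from Cond 2 by 0.11 (adjusted p = 0.766 from edgeR) and from Cond 3 by -0.61.

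The sequences just before the RefSeq start sites are shown for the 3 protein-coding genes among the called genes. Each line holds the 250 bases upstream of the RefSeq start in GRCh38.p14, 5′ to 3′ on the strand of the gene, for PCBP1 at chr2:70087227-70087476, for H1-10 at chr3:129316287-129316536 and for TXNDC5 at chr6:7910789-7911038, the first of 2 starts listed. Capitals mark the TATA box TATAAA, the CCAAT box CCAAT and the GC box GGGCGG on either strand, with overlapping matches joined.
PCBP1: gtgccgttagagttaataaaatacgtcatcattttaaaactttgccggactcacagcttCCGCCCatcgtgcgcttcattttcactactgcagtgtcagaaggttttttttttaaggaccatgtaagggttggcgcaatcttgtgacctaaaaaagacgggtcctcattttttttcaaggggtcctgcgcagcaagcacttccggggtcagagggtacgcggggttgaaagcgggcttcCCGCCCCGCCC
H1-10: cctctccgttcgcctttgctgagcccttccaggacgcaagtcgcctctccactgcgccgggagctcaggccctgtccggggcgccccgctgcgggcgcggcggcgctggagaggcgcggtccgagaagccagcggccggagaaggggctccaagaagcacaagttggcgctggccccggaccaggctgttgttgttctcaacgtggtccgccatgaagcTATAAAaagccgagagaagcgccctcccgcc
TXNDC5: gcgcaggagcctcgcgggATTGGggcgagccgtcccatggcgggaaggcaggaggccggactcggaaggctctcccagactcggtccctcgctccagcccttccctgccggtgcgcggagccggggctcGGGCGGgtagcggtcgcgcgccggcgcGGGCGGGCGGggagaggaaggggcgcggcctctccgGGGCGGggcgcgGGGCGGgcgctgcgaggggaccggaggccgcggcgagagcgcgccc
PCBP1 held 3 matches of GGGCGG and neither other motif, H1-10 held 1 match of TATAAA alone, and TXNDC5 held 5 matches of GGGCGG and 1 of CCAAT. Of 35116 upstream windows of this length, 42.6% held GGGCGG, 32.0% CCAAT and 10.7% TATAAA. The GC content was 50% for PCBP1, 68.4% for H1-10 and 80.8% for TXNDC5, beside a median of 58% over all windows. No motif searched was found in all 3 windows.

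The 10 genes that followed by p-value did not pass, and their edgeR adjusted p-values ran from 0.0948 to 0.286. BRI3, a small membrane protein, was at 47.5, 42.8 and 43.7 TPM in Cond 1 and at 68.4, 61.6 and 56.0 TPM in Cond 4, with a log2 fold change of 0.46. MAZ, a zinc-finger transcription factor, was at 54.3, 45.2 and 50.8 TPM in Cond 1 and at 67.2, 68.3 and 64.5 TPM in Cond 4 (log2 fold change 0.40). PADI2, which converts arginine to citrulline in proteins, was at 5.23, 5.12 and 5.18 TPM in Cond 1 and at 2.92, 2.70 and 2.96 TPM in Cond 4 (log2 fold change -0.87). The groups did not overlap for any of the 10 genes, beside 11.9% without overlap over all genes tested. Genes picked by p-value tend to have separate groups, so this adds no support. GPC1, a heparan sulfate proteoglycan, TUBA1B, an alpha-tubulin, and LGALS3BP, a secreted glycoprotein, had log2 fold changes of -0.29, -0.30 and -0.29, and ZNF462, a zinc-finger gene, had 0.34. TMEFF1, which had 0.59, shares 77.0% of its exonic bases with a read-through gene, and the pseudogene AC078817.1 had -0.36. The lncRNA AC017104.1 was counted with 5 reads in Cond 4 and 56 in Cond 1, a ratio of counts of 0.0938 with an exact Poisson interval of 0.0293 to 0.232 that covers counting error only.

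The largest fold changes came from genes with few reads. Among 734 genes with an unadjusted p under 0.05, a mean of at least 1 TPM and no overlap in TPM, 359 were higher and 375 lower in Cond 4. Beside TXNDC5, the genes with the largest positive values were the lncRNAs AL121772.3, AC103691.1, AC007663.4 and AL731577.2, with log2 fold changes of 2.36, 1.58, 1.55 and 1.54, and each had at most 16 reads in any Cond 1 library. Those with the largest negative values were AC017104.1, the small RNA RF02249, the lncRNA AC127024.2, COX7A1 and the lncRNA AC010168.1, with -3.38, -2.19, -1.93, -1.92 and -1.5. COX7A1, a subunit of cytochrome c oxidase, was counted with 15, 5 and 9 reads in Cond 1 and with 2, 4 and 1 in Cond 4. Apart from TXNDC5, none of these genes passed, at adjusted p-values from 0.284 to 0.801 with edgeR.

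In the gene groups that fit the cells and the treatment, 35 lists with 593 distinct genes, 516 genes were tested. Only PCBP1 and TXNDC5 were called with edgeR. At an unadjusted p under 0.05, 39 of the 516 genes differed (7.56%, beside 6.21% of all genes tested), 20 higher and 19 lower, and 459 were bounded within 2-fold (89.0%, beside 75.3%). The medians of the lists with a tested gene ranged from -0.10 to 0.28 in Cond 4, from -0.41 to 3.35 in Cond 2 and from -2.05 to 1.12 in Cond 3.

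**Figure D4:**
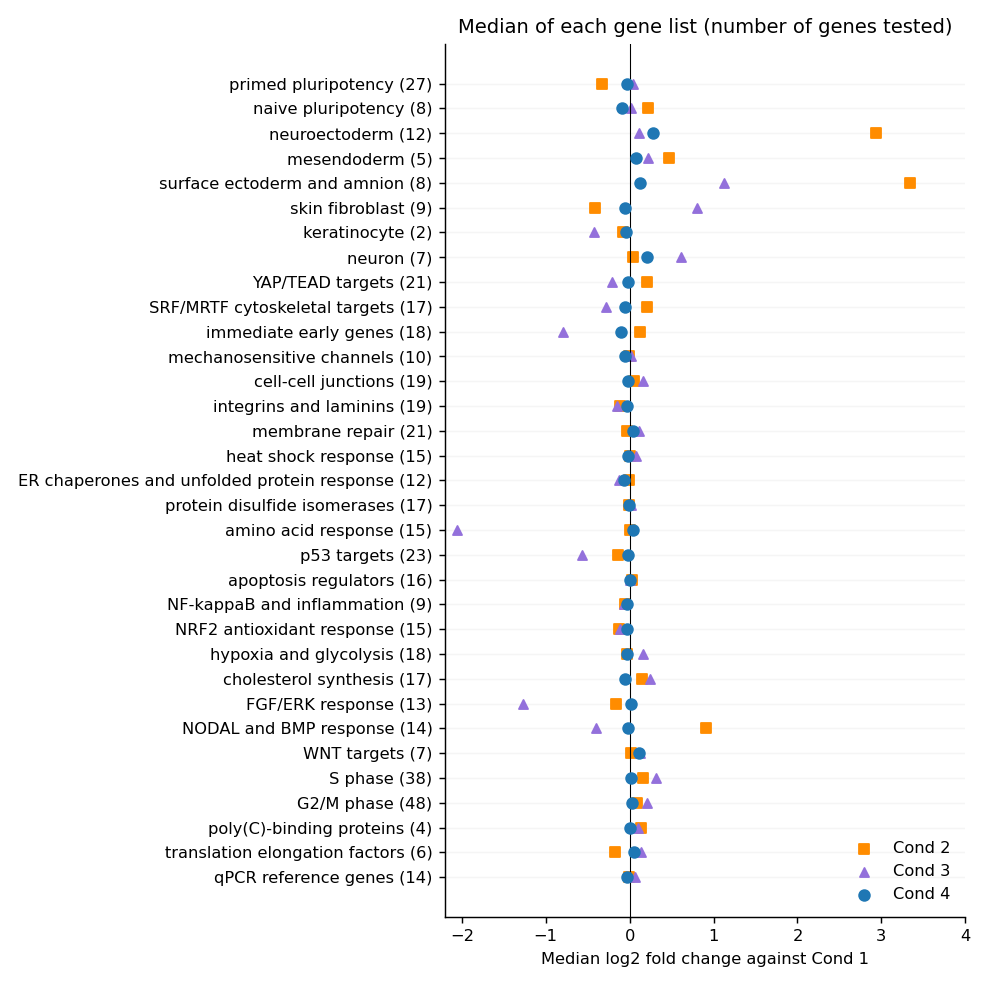
Median log2 fold change against Cond 1 (horizontal axis) of each gene list with a tested gene, except a list not reported here (vertical axis, number of genes tested in brackets), for Cond 4 (circles), Cond 2 (squares) and Cond 3 (triangles). All Cond 4 medians lie between -0.10 and 0.28, while those of Cond 2 reach 3.35 and those of Cond 3 reach -2.05; all 3 comparisons use the same Cond 1 libraries.

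Primed pluripotency genes, 27 of 27 tested, had a median of -0.028, and 25 were bounded within 2-fold. Their summed level was 13122 to 13587 TPM in Cond 1 and 13001 to 13575 TPM in Cond 4. CD24, the member with the highest level, was at 2088, 2292 and 2093 TPM in Cond 1 and at 2071, 2106 and 2110 TPM in Cond 4. L1TD1, an RNA-binding protein of pluripotent cells, and FGF2, the growth factor that sustains primed cells, had unadjusted p-values under 0.05 with log2 fold changes of 0.12 and 0.14. They were the only 2 of the 27 genes at that threshold, beside 6.21% of all genes tested. Of the 14 naive pluripotency genes, 8 were tested with a median of -0.085, and KLF5 had the smallest p, at 0.58 on the log2 scale (edgeR adjusted p = 0.790).

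No lineage marker was called after adjustment with edgeR. The neuroectoderm list had a median of 0.28 over 12 of 13 genes, none of them at an unadjusted p under 0.05 with edgeR, and only 5 were bounded within 2-fold. This median turned to -0.18 without Cond 1 replicate 1 and to -0.52 without Cond 4 replicate 3. NES, a filament protein that pluripotent cells also express and the member with the highest level, was at 314 to 372 TPM in Cond 1 and 320 to 373 TPM in Cond 4. The mesendoderm list had a median of 0.075 over 5 of 13 genes, which turned to -0.060 without Cond 1 replicate 3. For surface ectoderm and amnion the median was 0.12 over 8 of 12 genes, and it turned to -0.080 without Cond 1 replicate 2 and to -0.012 without Cond 4 replicate 3. DLX3, which had the smallest p of that list, was at 0 TPM in Cond 1 and 0.144 to 0.272 TPM in Cond 4. The medians of the fibroblast, keratinocyte and neuron lists were -0.055, -0.041 and 0.21 over 9, 2 and 7 genes. With 1 replicate left out, the neuron median ran from 0.058 to 0.21. The fibroblast median turned to 0.021 without Cond 1 replicate 3 and to 0.057 without Cond 4 replicate 1. For keratinocytes it turned to 0.060 without Cond 1 replicate 1 and to 0.0095 without Cond 4 replicate 3. COL1A1, at 234, 259 and 244 TPM in Cond 1 and 191, 222 and 221 TPM in Cond 4, had the smallest p of the fibroblast list (log2 fold change -0.23, adjusted p = 0.725 from edgeR).

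Of the genes known to respond to force, none was called after adjustment with edgeR, and at an unadjusted p under 0.05 there were 3 of 21 YAP/TEAD targets, 2 of 17 SRF/MRTF targets and 1 of 10 mechanosensitive channels, beside 6.21% of all genes tested. YAP/TEAD targets had a median of -0.014 over 21 of 22 genes. CCN2, the classical target among them, was at 492, 458 and 443 TPM in Cond 1 and at 431, 440 and 480 TPM in Cond 4, and CCN1 had a log2 fold change of -0.14 (95% interval -0.35 to 0.070). NT5E had the smallest p of the list, with 0.608 to 1.20 TPM in Cond 1 and 0.886, 9.24 and 0.571 TPM in Cond 4, so its log2 fold change of 2.09 came from Cond 4 replicate 2 alone. SRF/MRTF targets of the cytoskeleton had a median of -0.055, and 14 of 17 were below 0, beside 8857 of all 17747 genes and a median of -0.018 over the genes with 100 TPM or more. FLNA, the actin crosslinker filamin A, was at 900, 834 and 873 TPM in Cond 1 and at 816, 801 and 789 TPM in Cond 4, with a log2 fold change of -0.13 (unadjusted p = 0.00496, adjusted p = 0.728 from edgeR). ACTB, beta-actin, was at 8830, 10124 and 8886 TPM in Cond 1 and at 8593, 8468 and 8449 TPM in Cond 4 (log2 fold change -0.14, adjusted p = 0.751 from edgeR). The lower values of these 2 genes did not overlap with control, as in 5.12% of all genes tested, and neither passed.

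Immediate early genes had the lowest median of all lists, -0.10 over 18 of 19 genes, with none at an unadjusted p under 0.05 with edgeR. FOS was at 41.9, 40.4 and 67.6 TPM in Cond 1 and at 66.9, 13.3 and 17.1 TPM in Cond 4, where replicate 1 stood apart from the other libraries of its group. EGR1 was at 235, 192 and 235 TPM in Cond 1 and at 244, 180 and 179 TPM in Cond 4. The 95% interval of FOS, -1.73 to 0.41, was wide, while that of EGR1, -0.56 to 0.26, lay within a 1.5-fold change. Mechanosensitive channels had a median of -0.050 over 10 of 12 genes, all bounded within 2-fold. PIEZO1, the stretch-gated cation channel, was at 37.3, 28.2 and 32.7 TPM in Cond 1 and at 33.0, 30.9 and 31.7 TPM in Cond 4.

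The lists for contacts and the cell surface had medians near 0. Junction genes had a median of -0.021 over 19 genes, and CDH1, the E-cadherin that holds epithelial and pluripotent cells together, had a log2 fold change of -0.067 (95% interval -0.17 to 0.033). AFDN, a junction protein that binds actin, had the smallest p of this list with 0.15 (adjusted p = 0.751 from edgeR). Of the 19 junction genes, 17 were bounded within 2-fold. At an unadjusted p under 0.05 from edgeR, 2 of them were higher and 1 was lower, beside 2.9% and 3.31% of all genes tested. Integrins and laminins had a median of -0.033 over 19 of 20 genes, with ITGB1, the shared beta chain of laminin receptors, at 299, 265 and 266 TPM in Cond 1 and at 263, 271 and 286 TPM in Cond 4. Membrane repair genes, which reseal torn plasma membranes, had a median of 0.038 over 21 of 22 genes, and MYOF, the ferlin with the smallest p, was at 1.86 to 3.47 TPM in Cond 1 and 3.11 to 6.10 TPM in Cond 4.

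Stress responses had medians near 0. The heat shock list had -0.015 over 15 of 16 genes, and HSPA8, the constitutive chaperone, was at 956, 913 and 919 TPM in Cond 1 and at 839, 822 and 875 TPM in Cond 4 (log2 fold change -0.15, adjusted p = 0.790 from edgeR). The list of chaperones and unfolded protein response genes of the endoplasmic reticulum had -0.064 over 12 of 16 genes, all bounded within 2-fold. CALR, calreticulin, which had the smallest p among them, was at 829, 874 and 791 TPM in Cond 1 and at 765, 737 and 711 TPM in Cond 4 (log2 fold change -0.18, unadjusted p = 0.00175, adjusted p = 0.662 from edgeR). HSPA5, the sensor chaperone of that compartment, had a log2 fold change of -0.057. All 23 p53 targets and all 16 apoptosis regulators were tested and bounded within 2-fold, with medians of -0.022 and 0.0067. CDKN1A, the p53 target that halts the cell cycle, was at 66.6, 46.5 and 62.2 TPM in Cond 1 and at 56.2, 49.0 and 69.3 TPM in Cond 4. The amino acid response, NRF2 antioxidant, NF-kappaB and hypoxia lists had medians of 0.043, -0.029, -0.028 and -0.030. Of their 15, 15, 9 and 18 genes tested, 1, 1, 0 and 0 had an unadjusted p under 0.05 from edgeR, beside 6.21% of all genes.

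Growth and signalling lists had medians close to 0 as well. All 38 S phase genes tested and all 48 G2/M phase genes tested were bounded within 2-fold, with medians of 0.016 and 0.026. At an unadjusted p under 0.05 from edgeR, 3 S phase genes were higher and 3 lower. For G2/M phase, 3 were higher and 0 lower, beside 2.9% and 3.31% of all genes tested. MKI67, a marker of cycling cells, was at 43.2, 45.9 and 39.1 TPM in Cond 1 and at 42.9, 53.4 and 50.3 TPM in Cond 4 (log2 fold change 0.18, adjusted p = 0.790 from edgeR). PCNA, the clamp of DNA replication, had a 95% interval of -0.15 to 0.090. The FGF/ERK response list had a median of 0.017 over 13 genes, all bounded within 2-fold, while NODAL and BMP response genes had -0.020 over 14 of 15 genes. Of these 14 genes, 11 were bounded within 2-fold, and 1 was higher and 1 lower at an unadjusted p under 0.05 from edgeR. ID1 and ID4, targets of BMP signalling in the last list, differed in sign, with log2 fold changes of -0.18 and 0.26 that did not pass. The WNT target and cholesterol synthesis lists had 0.11 over 7 genes (-0.093 without Cond 1 replicate 2) and -0.055 over 17 genes, and translation elongation factors had 0.050 over 6 genes. Of these, 4 WNT targets, all 17 cholesterol synthesis genes and 5 elongation factors were bounded within 2-fold. The 14 genes in common use as qPCR references were all bounded within 2-fold, with ACTB at -0.14, GAPDH at -0.12 and TBP at 0.22 at unadjusted p-values under 0.05. At that threshold 1 of the 14 was higher and 2 were lower, beside 2.9% and 3.31% of all genes tested.

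Genes without a usable count row lie mostly on chromosomes 21 and 22 and on the mitochondrial genome, and were compared by TPM with limma on log2(TPM + 1). Of 2042 such genes, 639 passed a filter of at least 1 TPM in 3 libraries. With limma, 0 of them had an adjusted p under 0.05, the smallest being 0.360, and 45 (7.04%) had an unadjusted p under 0.05, 17 higher and 28 lower. Over the whole TPM table the same test called 2 of 19552 genes (0.0102%) at an adjusted p under 0.05, PCBP1 and H1FX, and 1187 (6.07%) at an unadjusted p under 0.05. The interval lay within 2-fold for 500 of the 639 genes (78.2%). MT-CO1, a mitochondrial subunit of cytochrome c oxidase, was at 12918, 9078 and 14719 TPM in Cond 1 and at 12492, 13371 and 12836 TPM in Cond 4. The 13 mitochondrially encoded proteins summed to 78231 to 118105 TPM in Cond 1 and 102916 to 112302 TPM in Cond 4. The MT-CO1 value in Cond 1 replicate 2, the library with the low mitochondrial share, was the lowest of the 6, and the 95% interval of its log2 fold change was -0.41 to 0.62. TMEM184B, CYB5R3, RAC2 and ETS2 on these chromosomes had log2 fold changes of -0.23, -0.20, -0.57 and -0.21, and MIR6724-3, a miRNA gene with near-identical copies, was listed at 0 in Cond 1 and at 2.01 to 4.24 TPM in Cond 4.

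A small trend with base composition ran through the comparison. Across 10363 genes with more than 8 CPM (counts scaled to the size of the library), the log2 fold change of Cond 4 had a Spearman correlation of -0.36 with the GC content of the transcripts and of 0.21 with their length. The median log2 fold change was 0.042 in the GC quintile with the lowest content and -0.059 in the quintile with the highest, where 28.0% of genes were above 0. Each Cond 4 library showed it. The difference between the highest and lowest quintiles was -0.059, -0.12 and -0.11 in the Cond 4 libraries and 0.0085, -0.0094 and -0.0040 in those of Cond 1, which are compared with their own mean and so lie closer to 0. For Cond 2 and Cond 3 the correlations with GC content were -0.12 and 0.14. The difference between the quintiles was 0.034, -0.17 and -0.12 in the Cond 2 libraries and 0.15, 0.072 and 0.18 in those of Cond 3. Differences between quintiles of this size therefore also occurred in libraries of Cond 2 and Cond 3. The correlation with GC content was strongest in Cond 4, while Cond 3 ran in the other direction and the Cond 2 libraries differed in sign. With offsets for GC content and length, an alternative chosen after the trend was seen, the correlation was -0.013, the same 3 genes were DEGs, and 8 genes had an adjusted p under 0.05, with BRI3, MAZ and PTOV1 added to the 5.

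**Figure D5:**
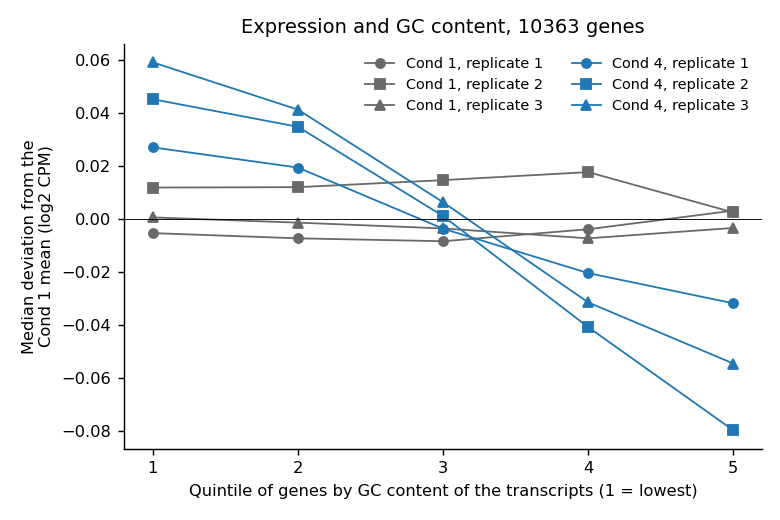
Median deviation of each library from the mean of Cond 1 (vertical axis, log2 CPM) in quintiles of 10363 genes by the GC content of their transcripts (horizontal axis, 1 the lowest). Each line is a library; the Cond 4 lines fall from between 0.027 and 0.059 in the lowest quintile to between -0.080 and -0.032 in the highest, while the Cond 1 lines stay within 0.018 of 0.

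Cytosolic ribosomal protein genes leaned to lower values, with a median of -0.030 over 77 genes. At an unadjusted p under 0.05, 17 of them were lower and 3 higher in Cond 4 (26.0%, beside 6.21% of all genes), and none passed after adjustment with edgeR. All genes with a mean of 100 TPM or more had a median of -0.018, and 187 of these 1657 genes (11.3%) had an unadjusted p under 0.05 with edgeR. The part of expression level and GC content in the ribosomal values was not tested. Genes of 1 exon, which include PCBP1, H1FX and EEF1A1P6, had a median of 0.0049 over 1925 genes. By chromosome, the median log2 fold change of log2(TPM + 1) on chromosomes 1 to 22 lay between -0.029 on chromosome 22 and 0.038 on chromosome 13.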

How the data were processed

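The 12 RNA-Seq libraries came from the iPSC line 201B7, with 3 per condition in 4 conditions. The authors made directional poly(A) libraries, trimmed the reads with cutadapt 4.1 and fastp 0.20.1, aligned them to GRCh38 with HISAT2 2.1.0 and counted them with featureCounts, per the labels and the methods. How strand and reads with several matches were treated in counting is not given in the sources used here. The authors deposited counts per gene without normalization, and TPM computed from them (largest relative deviation when recomputed 1.79e-14). From the 58580 lines with counts, 5 broken ones were left out, and 2042 of the 60617 genes with a TPM had no count row.

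In R 4.3.3, edgeR 4.0.16 was run with filterByExpr, TMM normalization and its quasi-likelihood test, as Cond 4 minus Cond 1 in a single fit over the 12 libraries. A 95% interval was the log2 fold change plus or minus the t quantile times its standard error. Genes without a count row were tested with limma 3.58.1 on log2(TPM + 1), which understates the change of genes at low TPM. The exact permutation test of 3 libraries against 3 was two-sided. On simulated data with 200 genes changed by 1.5 on the log2 scale among 17363, edgeR recovered 187 with 1 false call. The changed genes were drawn only from those above a minimum mean count, and their change exceeded the 2-fold threshold. The result therefore does not cover genes with few reads or smaller changes. Coordinates and overlaps were taken from GENCODE release 44, and upstream sequences from RefSeq on GRCh38.p14. EEF1A1P6 was aligned with the coding sequence of EEF1A1 with Biopython.

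The genes described and the gene lists were chosen with earlier results of these data known. Named were the genes with an adjusted p under 0.05, the next 10 by p-value, the 5 largest and 5 smallest fold changes among genes with an unadjusted p under 0.05, at least 1 TPM and no overlap, the most abundant member and the member with the smallest p of each list, 4 pluripotency markers, and relatives of the called genes. CCN1, FOS, EGR1, PIEZO1, CDH1, HSPA5, CDKN1A, MKI67, FGF2, PDIA4, PDIA5, TXNDC16, GAPDH, TBP, PAX6 and GATA3 were named beyond this rule, as members of the lists, after their values were seen. Of the list members, some that the rule names are given by count only. Alternatives were no filter on low counts, upper-quartile normalization, DESeq2 1.42.0, limma on TPM, the 6 libraries alone, a replicate block, other thresholds and each replicate left out in turn. Of the 35 gene lists, the values of 1 are not reported here.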

Additional observations from a re-analysis of the deposited data

How the results depend on the processing

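The 3 DEGs became 2 with DESeq2, 3 with upper-quartile normalization, with the 6 libraries alone and with offsets for GC content and length, 14 with no filter on low counts, 1 with limma on log2(TPM + 1) and 1 on log2(TPM + 0.1), 152 at an unadjusted p under 0.05 with a fold change above 2, and 2 to 3 when a replicate was left out. The 5 genes with an adjusted p under 0.05 became 11 with DESeq2 (8 higher and 3 lower, 4 of them shared with the 5), 52 with no filter (27 higher and 25 lower, including the 5), 3 with limma at either pseudocount over the 14253 genes with at least 1 TPM in all libraries, 8 with the 6 libraries alone, 8 with the offsets, and 4 to 5 when a replicate was left out. In most of these settings the genes tested differ in number, from 14253 to 34551, and the cause of the changed counts was not tested. The genes bounded within 2-fold numbered 12789 to 12908 when a replicate was left out and 13317 to 13490 under the other alternatives run.

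PCBP1, H1FX and LINC01578 kept their direction and their call in all 14 alternatives run for each. LINC01578 passed only narrowly in the 2 limma fits among them (adjusted p = 0.0485 and 0.0492 from limma). It was not among the 2 genes that limma called over the 19552 genes of the whole set with a TPM. TXNDC5 lost the call in 2 of 14, the limma fits (log2 fold change 1.94 and 2.23, adjusted p = 0.125 and 0.183 from limma), and EEF1A1P6 in 8 of 14, with adjusted p-values up to 0.406. Of 340 recomputed list medians, 42 moved by more than the spread between replicates, 37 of them with a replicate left out, and the 340 lay between -0.52 and 0.66. The sign turned in 35 of the 340, in 23 lists, and 34 of these had a replicate left out, among them the neuroectoderm median, which moved by less than the spread between the Cond 1 libraries. The fit without Cond 1 replicate 2, the library with the lowest mitochondrial share, gave 2 DEGs and 4 genes with an adjusted p under 0.05 from edgeR, EEF1A1P6 being lost.

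Whether replicate numbers pair the samples was not settled. The correlations of deviations between same-numbered libraries of Cond 1 and Cond 4 were 0.069, 0.046 and 0.068. Those between libraries with different numbers ran from -0.055 to -0.011, so each library correlated best with its own number. The same-numbered values lay under a cut-off of 0.1 chosen for this check, which cannot decide the question. With the replicate number as a block there were 3 DEGs, 5 genes with an adjusted p under 0.05, 13317 genes bounded within 2-fold and 0 of the genes without a count row (46 at an unadjusted p under 0.05 from limma).

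Of the genes below 1 TPM, 10.9% were bounded within 2-fold, and the parts of depth and replicate spread in this were not tested.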
